A study of Mus musculus with 6 samples.

Results

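Genes of intracellular motor proteins were examined in cone photoreceptors sorted from mice that either kept or lost the clock gene Bmal1 in cones. The set was taken by gene name, with earlier results of these data known. It holds every gene of the deposited table whose symbol begins as a kinesin heavy chain (Kif), kinesin light chain (Klc), cytoplasmic dynein 1 subunit (Dync1), dynein light chain (Dynll, Dynlrb, Dynlt), dynactin subunit (Dctn), axonemal dynein subunit (Dnah, Dnai, Dnal) or numbered myosin (Myo), with Dnah9 and the Dync2 genes left aside. These were 53 of the 9720 genes of the table. The set is wider than motors in the strict sense, since Kif1bp, a gene for a protein that binds kinesins, carries a kinesin-like name, and the 11 myosins walk on actin. Of 107 protein-coding gene names in GENCODE vM21 that meet the name rule, the table gave values for 18 of 39 Kif names, 4 of 4 Klc, 4 of 5 Dync1, 6 of 6 Dctn, 1 of 14 Dnah and 11 of 25 Myo names. The others, among them Kif5a, Kif17 and Dync1i1, were not analysed here.

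The study compared 3 libraries of control cones (HRGPcre;Bmal1f/+;Z/EG) with 3 of knockout cones (HRGPcre;Bmal1f/f;Z/EG), from mice of mixed C57BL/6 background. Both groups carried HRGPcre, a transgene that drives Cre recombinase in cones, and the Z/EG reporter, which turns on eGFP after Cre has acted, so a recombined control cone has 1 intact copy of Bmal1. The labels state 2 age ranges, 60 to 80 days and 2 to 6 months, and a cycle of 12 h light and 12 h dark. Cones were collected by FACS for eGFP from dissociated neural retina, and each library was made from 100 ng of RNA. The labels do not say how many animals a library holds or at what time of day it was taken, so p-values reflect the spread of these samples alone, and part of that spread may be technical.

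Kinesins walk along microtubules, most of them toward the plus end, and carry vesicles, mitochondria and protein complexes outward. Cytoplasmic dynein 1 walks toward the minus end and needs dynactin to move far, whereas axonemal dyneins bend motile cilia. Photoreceptors are known for heavy traffic of this kind, because the outer segment is a modified cilium supplied through a narrow connecting cilium and the ribbon synapse lies at the far end of the cell.

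Arntl, the gene of BMAL1, did not differ in level between groups beyond the spread, and as a whole-gene value it checks no deletion of a part of the gene. It was at 2.9998, 2.60 and 3.27 FPKM in the controls and 3.37, 2.28 and 3.48 FPKM in the knockouts (log2 difference 0.02, 95% interval -0.45 to 0.50, adjusted p = 0.9996, limma). Nr1d1, a known target of BMAL1, was between 38.3 and 56.3 FPKM in control libraries and between 2.87 and 4.91 FPKM in knockout libraries. Values are FPKM, a fragment count adjusted for transcript length and library size, which allows levels of different genes to be compared per length. Their sums over the table ranged from 84995 to 128773 FPKM per library, the 53 motor genes made up 0.541% to 0.610% of them, and the sequencing depth is unknown. All 10 cone markers had values, with sums of 4196, 7153 and 6664 FPKM over the control libraries and 5523, 6128 and 6811 FPKM over the knockout libraries. All 10 rod markers had values too, with sums of 2806, 3072 and 3415 FPKM in controls and 2266, 2747 and 3332 FPKM in knockouts. The ranges of the sums thus overlapped for both lists. Single markers differed in both directions, with 3 positive and 7 negative log2 differences for cones and 6 positive and 4 negative for rods. Opposite differences offset each other in the cone sums. Opn1sw averaged 981 FPKM in controls and 1947 FPKM in knockouts, and Opn1mw 1092 and 745 FPKM. None of the 10 cone markers passed in limma. The 5 Muller glia markers with values summed to 88.2 to 116 FPKM in controls and 97.5 to 108 FPKM in knockouts. For the 6 bipolar cell markers with values the sums were 45.1 to 65.3 FPKM in controls and 50.8 to 57.2 FPKM in knockouts. Motor genes are also used by rods, and in bulk samples fewer cells of a type and less RNA per cell cannot be told apart. Control 1 had the lowest mean correlation with the other libraries (r = 0.899 across genes, against 0.929 to 0.945 for the other 5). It also gave the lowest value for 26 of the 47 motor genes tested (55.3%, against 39.2% of all tested genes).

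Motor genes spanned a wide range of levels in control cones, from Dnah14 at 0.190 FPKM to Dynll1 at 83.0 FPKM (group means), with a median of 6.56 FPKM against 3.87 FPKM for the whole table. Only 6 of the 53 exceeded a control mean of 20 FPKM, namely Dynll1, Dynlrb1, Kif1b, Dctn6, Kif1a and Kif2a, and 18 lay under 5 FPKM. Tests were run on the 47 members whose 6 libraries averaged 1 FPKM or more. The other 6 members were Kif1c, Kif3c, Kif5c, Kif16b, Myo1e and Dnah14, each with a mean under 1 FPKM. Kif9, at a mean of 1.03 FPKM, lay just inside that limit and Kif1c, at 0.967 FPKM, just outside. Dnah14 was the single member with a library at the table's floor of 0.1 FPKM, and its highest value, 1.12 FPKM, came from knockout 3.

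**Figure D1:**
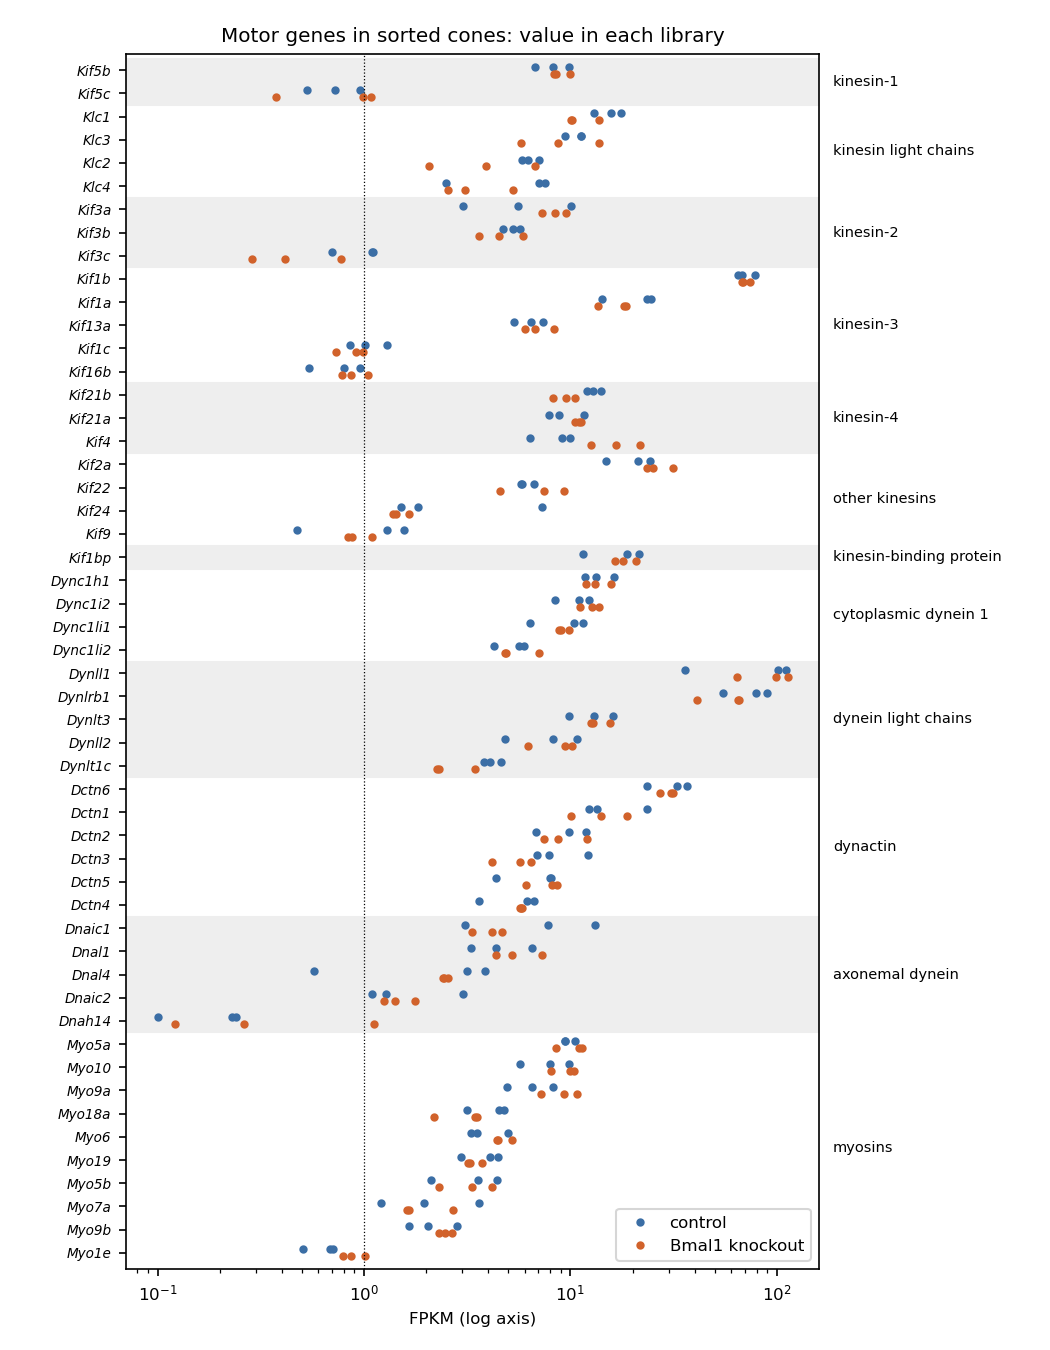
FPKM (log axis) of 52 motor genes in each of the 6 libraries, by class, with control libraries in blue and knockout libraries in orange and a dotted line at 1 FPKM. Dynll1, Dynlrb1 and Kif1b lie highest, and the groups overlap for most genes.

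The comparison addressed which transcripts change in cones that lack Bmal1, and no motor gene of the set, which leaves Dnah9 aside, passed. Of the 47 tested, 0 reached an adjusted p of 0.05 in limma, against 0.104% of the 8627 genes tested, and the smallest adjusted p was 0.517. An unadjusted p under 0.05 was reached by 3 motor genes (6.38%), against 5.49% of all tested genes. The 3 control and 3 knockout values were apart for 4 motor genes (8.51%), against 9.39% of all genes, with 1 higher in knockout (3.52% of all genes) and 3 lower (5.87% of all genes). With all libraries and no rescaling, these shares were near those of the whole table. The log2 difference, on the scale of log2(FPKM + 1), was positive for 25 motor genes (53.2%) and negative for 22, against 47.4% positive among all genes. Its median was 0.01 over the motor genes and -0.02 over all tested genes.

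The data bound these differences to a moderate size without showing that the groups are alike. The 95% intervals of the log2 differences had a median reach of 0.54 to either side, from 0.46 for Kif21b to 0.86 for Dynll1. For 37 of the 47 genes the whole interval lay within 1 log2 unit of zero, and for 10 it did not.

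**Figure D2:**
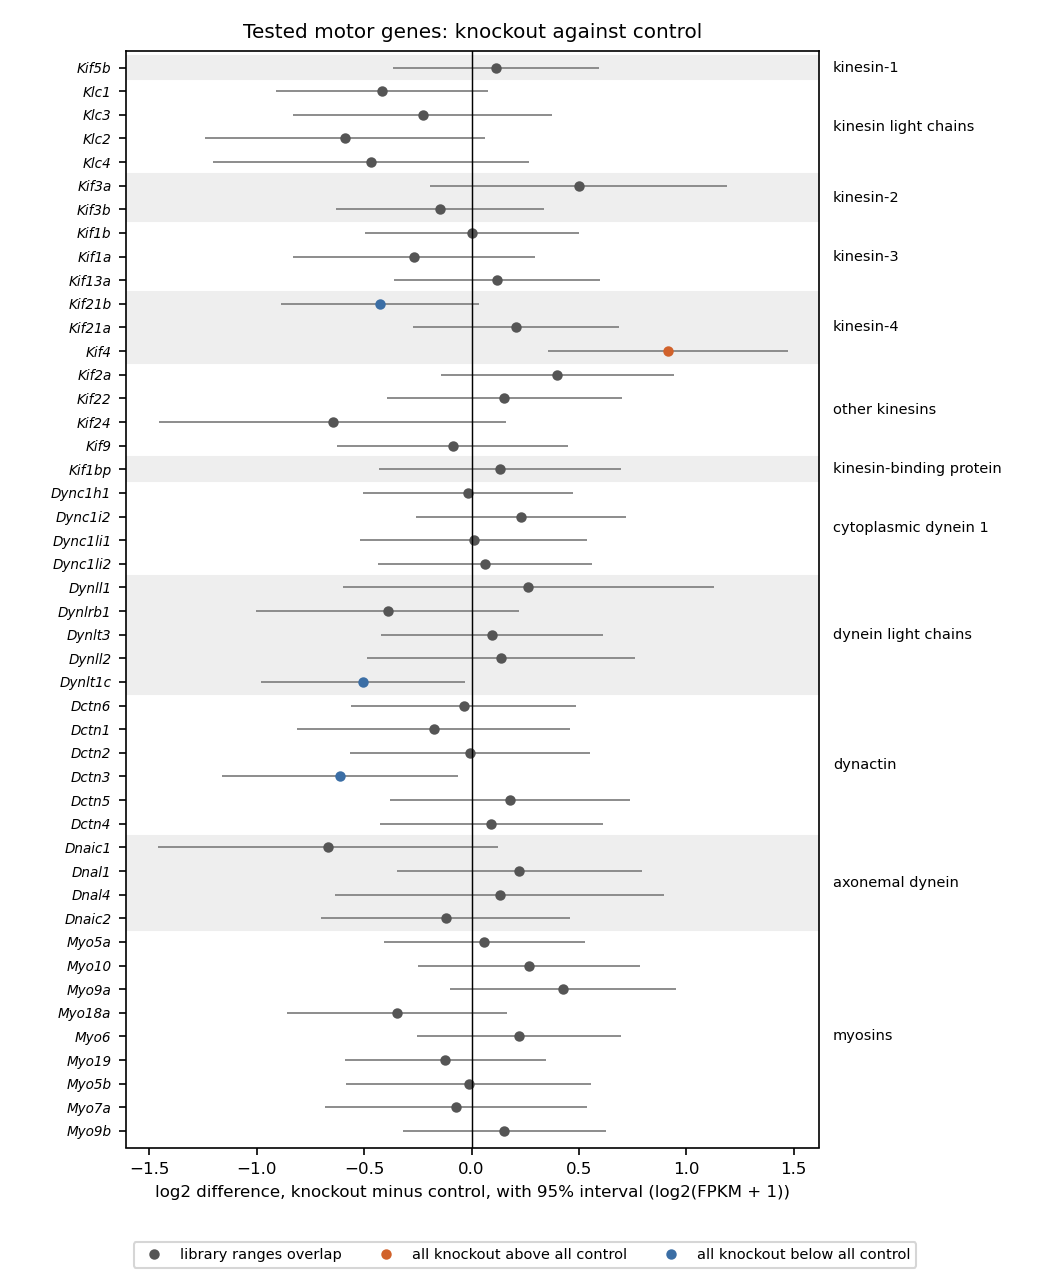
Log2 difference between knockout and control, with its 95% interval from limma, for 46 tested motor genes by class. Kif4 is the single gene drawn with all knockout values above all control values, and Dctn3, Dynlt1c and Kif21b are the 3 with all knockout values below.

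**Figure D3:**
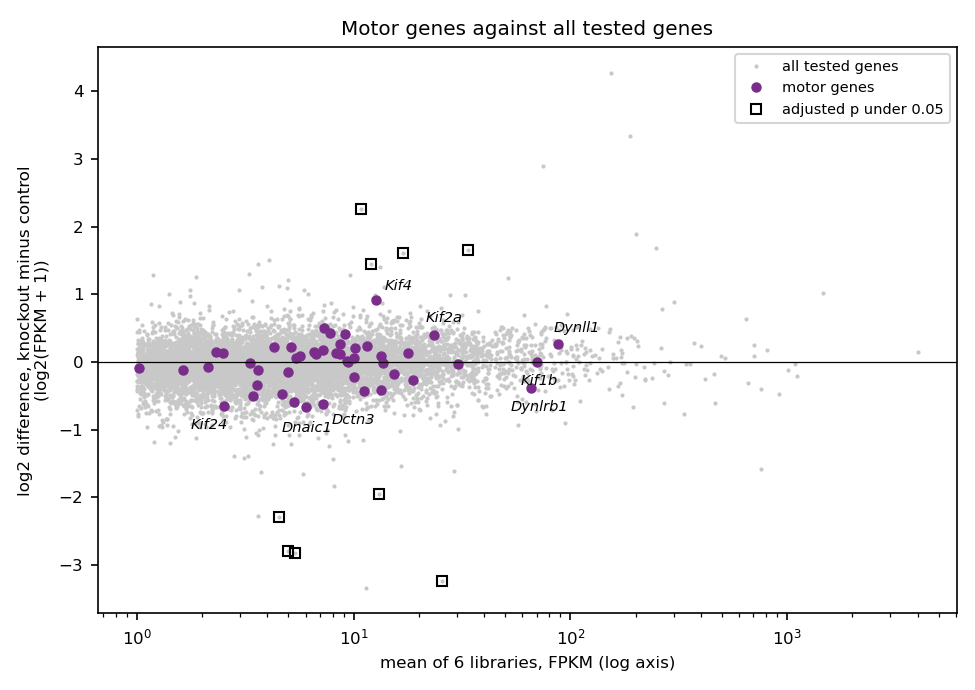
Log2 difference against the mean of the 6 libraries (FPKM, log axis) for all 8627 tested genes in grey and the 47 motor genes in purple, with black squares around the 9 genes past an adjusted p of 0.05. None of the 47 motor genes carries a square, and they lie within the grey cloud.

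BMAL1 acts with CLOCK on E-box elements of the sequence CACGTG, which reads the same on both strands. RefSeq promoter windows (GRCm38.p6, 250 bases before to 50 after a start site) were at hand for 43 of the 53 motor genes, and 3 of these genes (6.98%) held CACGTG, against 12.2% of the 7469 table genes with a window. The 3 stretches are printed because they are the only motor gene windows with the motif. Each is given 5′ to 3′ on the gene's strand, with 60 bases before and 9 after the motif, which is in capitals.
Dnaic2, chr11:114727276-114727350, plus strand: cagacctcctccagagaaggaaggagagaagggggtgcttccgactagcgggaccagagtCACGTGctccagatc
Kif1a, chr1:93082582-93082656, minus strand: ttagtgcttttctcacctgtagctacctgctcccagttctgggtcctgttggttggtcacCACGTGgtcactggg
Klc4, chr17:46646081-46646155, minus strand: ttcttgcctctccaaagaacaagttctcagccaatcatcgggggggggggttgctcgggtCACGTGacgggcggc
The motif begins 83, 116 and 15 bases before the RefSeq start in Dnaic2, Kif1a and Klc4, and the Kif1a stretch belongs to a start inside the gene. The bases checked after the Klc4 start were in no Klc4 transcript of GENCODE vM21, so its distance holds for the RefSeq start alone. None of the stretches overlaps an exon of GENCODE vM21. The log2 differences of these genes were -0.12, -0.27 and -0.47, and none passed (adjusted p = 0.9996, 0.984 and 0.948, limma). A match is a description of the letters and shows no binding, and the windows of Kif4, Dctn3 and Dynlt1c held no match.

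Kinesin-1 carries cargo through heavy chains of the Kif5 group and light chains that bind cargo. Kif5b was the main heavy chain in these cones, at 6.71, 8.24 and 9.87 FPKM in controls and 8.34, 9.95 and 8.57 FPKM in knockouts (log2 difference 0.11 ± 0.22, SE; adjusted p = 0.9996, limma). The values of the groups overlapped. Kif5c, the neuronal paralogue, stayed between 0.376 and 1.09 FPKM, and Kif5b made up 89.4% to 95.8% of the sum of both genes in each library.

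All 4 kinesin light chain genes had values, and all 4 differed in the negative direction, at a class median of -0.44 on the log2 scale. None passed. Klc1, the most abundant, read 13.1, 17.5 and 15.7 FPKM in controls and 10.1, 10.2 and 13.8 FPKM in knockouts (log2 difference -0.42 ± 0.23, adjusted p = 0.909, limma). Its knockout 3 value lay above the lowest control value, so the groups overlapped. Klc2 read 7.02, 6.21 and 5.80 FPKM in controls and 2.06, 3.88 and 6.75 FPKM in knockouts (log2 difference -0.59 ± 0.30, adjusted p = 0.897, limma). Here too knockout 3 fell within the control range, and the log2 difference was -0.92 without that library and -0.25 without knockout 1. The remaining pair showed the same order among knockout libraries, with Klc3 at 5.80, 8.69 and 13.8 FPKM and Klc4 at 2.54, 3.08 and 5.28 FPKM. Their control values were 9.42, 11.3 and 11.3 FPKM for Klc3 and 2.51, 7.52 and 7.04 FPKM for Klc4. A rise from knockout 1 to knockout 3 was also seen in the sums of the cone markers and of the rod markers. The summed level of the 4 genes was 38.1 ± 5.44 FPKM in controls and 28.6 ± 9.90 FPKM in knockouts (mean ± SD, n = 3 each), and 1 knockout library, at 39.6 FPKM, reached the control range. Klc1, Klc2 and Klc4 kept a negative difference in every alternative that tested them, and Klc3 turned to 0.05 without knockout 1. Exons of Klc3 overlap those of Ercc2 on the opposite strand by 744 bp, those of Klc2 an antisense gene by 439 bp and those of Klc1 Xrcc3 by 12 bp. The sources used here do not give whether strand was used in counting.

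**Figure D4:**
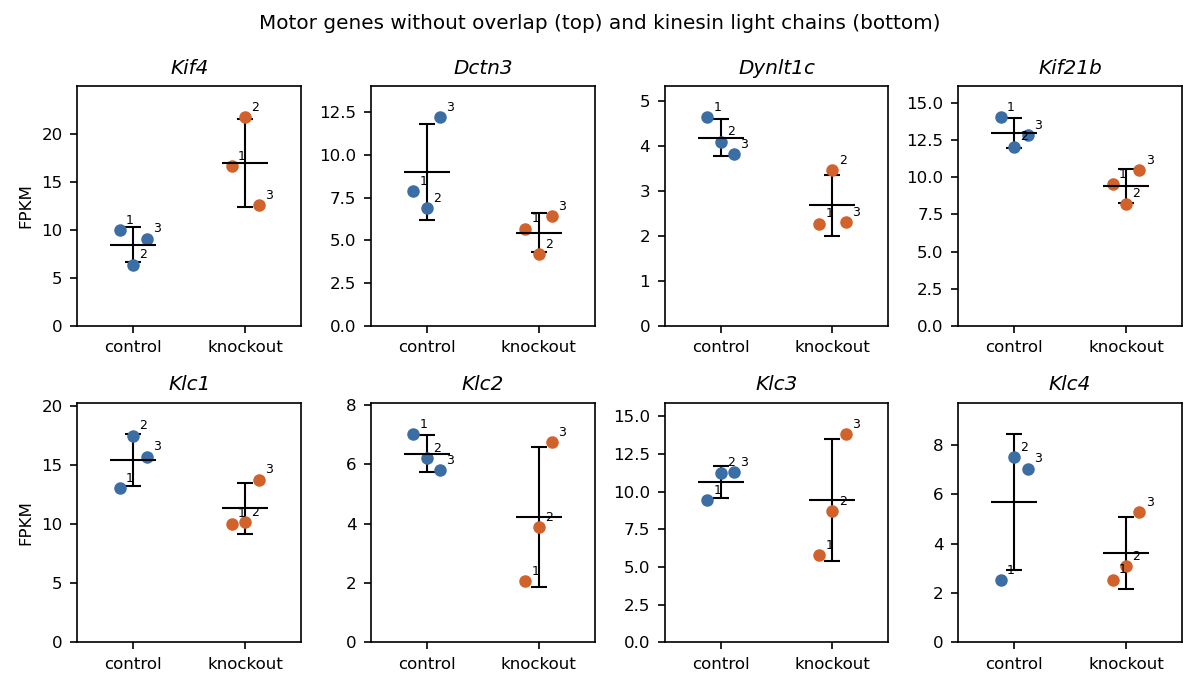
FPKM in each library (numbered points) with the group mean and SD (bars) for the 4 tested genes whose groups do not overlap, above, and the 4 kinesin light chain genes, below. Kif4 is higher in all knockout libraries, and for each light chain gene knockout 3 is the highest knockout library.

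Kinesin-2 is the motor of anterograde transport inside cilia, built from Kif3a with Kif3b or Kif3c. Kif3a read 3.01, 5.58 and 10.03 FPKM in controls and 8.42, 9.50 and 7.31 FPKM in knockouts (log2 difference 0.50 ± 0.32, adjusted p = 0.934, limma). Control 3 lay above every knockout library and control 1 far below, and the log2 difference was 0.14 without control 1 and 0.87 without control 3. Kif3b stood at 5.23 ± 0.50 and 4.68 ± 1.14 FPKM in control and knockout. Kif3c was below the limit for testing, at 0.698, 1.10 and 1.10 FPKM in controls and 0.415, 0.286 and 0.775 FPKM in knockouts. As a share of the 3 genes, Kif3c made up 6.51% to 9.21% in control libraries and 2.00% to 5.55% in knockout libraries. Its levels overlapped between groups. These shares repeat the values of the 3 genes, with Kif3a between 3.01 and 10.03 FPKM in controls, and are no further evidence. Exons of Kif3c share 2617 bp with those of the antisense gene 1110002L01Rik on the other strand.

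Kinesin-3 motors haul vesicle precursors and mitochondria, and in neurons Kif1a and Kif1b carry synaptic vesicle precursors. Kif1b was the most abundant kinesin, at 64.7, 78.6 and 67.7 FPKM in controls and 68.7, 67.8 and 74.3 FPKM in knockouts. Its control mean was above that of 98.4% of the table's genes. Its log2 difference of 0.00 had a 95% interval of -0.50 to 0.50 (adjusted p = 0.9998, limma), and the libraries of both groups were interleaved. Kif1a followed at 20.8 ± 5.75 and 16.8 ± 2.69 FPKM. Kif1b made up 72.2% to 83.9% of the sum of Kif1a, Kif1b and Kif1c, and Kif1c, at 0.732 to 1.29 FPKM, made up at most 1.44%. Kif13a, which carries endosomal cargo, measured 6.37 ± 1.005 and 7.01 ± 1.16 FPKM, and Kif16b stayed between 0.539 and 1.05 FPKM.

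The kinesin-4 family held the motor gene of the smallest p. Kif4 encodes a chromokinesin known for its work on mitotic chromosomes and the spindle midzone. It read 9.95, 6.38 and 9.08 FPKM in controls and 16.6, 21.7 and 12.6 FPKM in knockouts. Every knockout library was above every control library, and the means of 8.47 ± 1.86 and 17.0 ± 4.58 FPKM differed 2.00-fold. The limma fit put the log2 difference at 0.91 ± 0.26 (95% interval 0.36 to 1.47), with an unadjusted p of 0.0038 and an adjusted p of 0.517. It was positive in all 16 alternatives, from 0.73 to 1.12, and the adjusted p ranged from 0.069 with array weights to 0.9996 without knockout 2. With the groups apart, the positive sign was fixed in advance wherever the values were not rescaled, and is no further evidence. Kif4 (ENSMUSG00000034311.3) is a plus-strand gene of chromosome X at positions 100625737 to 100727214 in GRCm38. Its exons overlap those of Pdzd11 on the opposite strand by 832 bp, and Pdzd11 measured 9.07 ± 1.38 and 10.9 ± 2.80 FPKM. The 9 markers listed for dividing cells, among them Mki67, Top2a and Cdk1, had no values in the table used here and so were not analysed.

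Kif21b, a kinesin-4 motor that also slows microtubule growth, had a negative difference. It read 14.0, 12.1 and 12.8 FPKM in controls and 9.55, 8.22 and 10.5 FPKM in knockouts, with no overlap, and did not pass (log2 difference -0.43 ± 0.21, adjusted p = 0.897, limma). Its paralogue Kif21a measured 9.46 ± 1.96 and 10.9 ± 0.37 FPKM. Kif21a thus made up 36.0%, 42.2% and 47.6% of the pair in control libraries and 52.4%, 57.8% and 51.2% in knockout libraries. This share repeats the values of both genes and is no further evidence. Kif21b is a plus-strand gene of chromosome 1 (136131389 to 136177998).

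**Figure D5:**
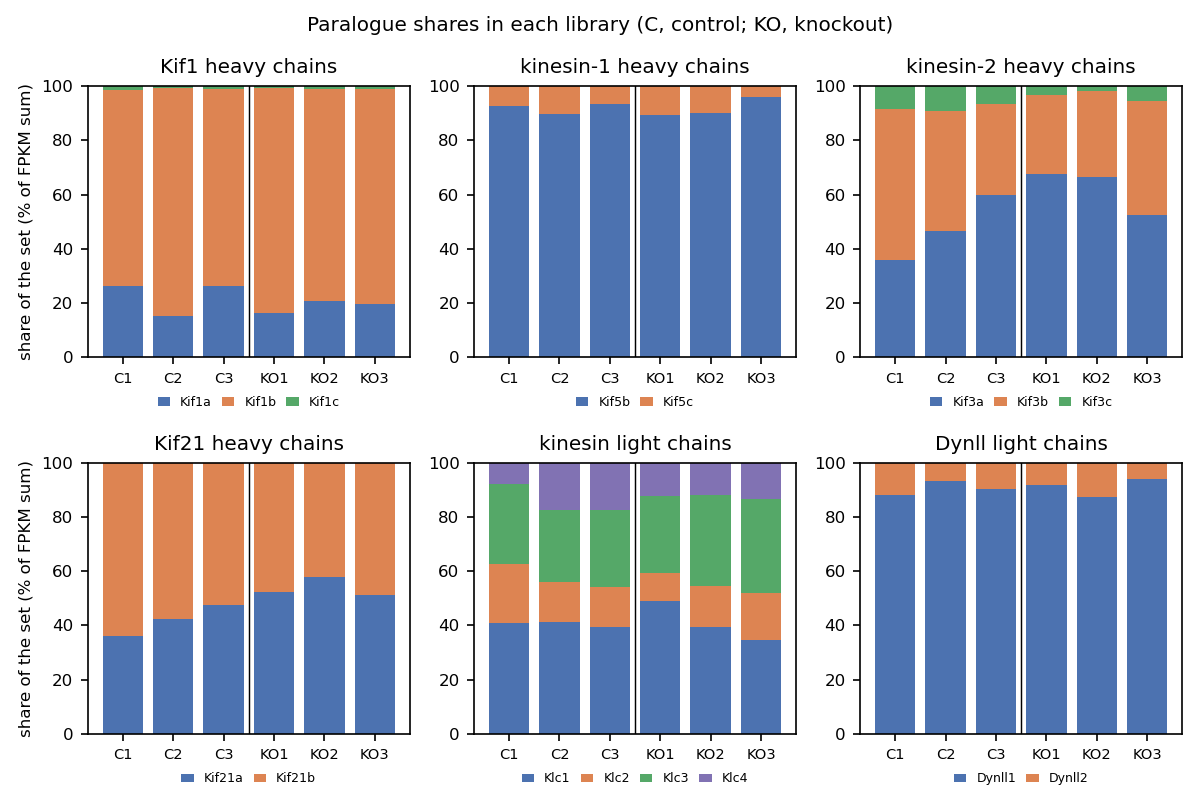
Share of each paralogue in the FPKM sum of its set, in percent, for 6 sets in each control (C) and knockout (KO) library. Kif1b, Kif5b and Dynll1 make up most of their sets in all 6 libraries, and the Kif21a share is above 50% in knockout libraries alone.

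The other kinesins were of mixed kinds. Kif2a, a kinesin-13 that takes microtubule ends apart, read 14.8, 21.4 and 24.4 FPKM in controls and 23.4, 31.4 and 25.1 FPKM in knockouts (log2 difference 0.40 ± 0.25, adjusted p = 0.929, limma). The groups overlapped through knockout 1 alone, and the log2 difference was 0.20 without control 1. Exons of Kif2a overlap those of Dimt1 on the opposite strand by 1229 bp. Kif24, a kinesin-13 of the centriole known for holding back cilium formation, read 7.29 FPKM in control 1 but 1.51 and 1.83 FPKM in controls 2 and 3, against 1.43, 1.39 and 1.65 FPKM in knockout. Its log2 difference of -0.65 ± 0.37 (adjusted p = 0.913, limma) was -0.10 without control 1. Control 1 was also the library with 21.1 FPKM of the ganglion cell marker Stmn2, against 0.10 to 0.668 FPKM in the other 5. The 3 of 6 ganglion cell markers with values summed to 23.9 FPKM in control 1, 2.99 FPKM in control 2, 2.63 FPKM in control 3 and 2.07 to 2.32 FPKM over knockouts, and their part in the Kif24 value was not tested. Kif22, a chromokinesin, measured 6.08 ± 0.53 and 7.11 ± 2.38 FPKM, and Kif9 1.11 ± 0.57 and 0.939 ± 0.141 FPKM. Kif1bp read 11.5, 18.7 and 21.5 FPKM in controls and 18.1, 16.5 and 20.8 FPKM in knockouts (log2 difference 0.13 ± 0.26, adjusted p = 0.9996, limma).

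Cytoplasmic dynein 1 is built on the heavy chain Dync1h1, with intermediate and light intermediate chains that hold cargo and dynactin. Dync1h1 read 11.7, 13.4 and 16.3 FPKM in controls and 13.2, 11.8 and 15.8 FPKM in knockouts. Its log2 difference of -0.02 had a 95% interval from -0.51 to 0.47 (adjusted p = 0.9996, limma), and the libraries were interleaved. Dync1i2, the intermediate chain with values here, measured 10.6 ± 2.01 and 12.5 ± 1.30 FPKM. The light intermediate chains Dync1li1 and Dync1li2 measured 9.39 ± 2.70 and 5.29 ± 0.91 FPKM in controls and 9.22 ± 0.53 and 5.60 ± 1.29 FPKM in knockouts. The class of 4 genes thus lay within a narrow band of levels, and its log2 differences ran from -0.02 to 0.23, the narrowest range among classes of at least 4 tested genes.

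Dynein light chains link the dynein complex and also bind many other proteins. Dynll1, the most abundant motor gene of all by its control mean, read 35.8, 111 and 102 FPKM in controls and 113, 64.0 and 98.6 FPKM in knockouts. Control 1 stood far below the other libraries, and the log2 difference was 0.26 ± 0.40 with all libraries and -0.25 without control 1 (adjusted p = 0.9996 and 0.832, limma). Dynll1 made up 87.2% to 94.1% of the sum with its paralogue Dynll2. Dynlrb1, the roadblock chain, measured 74.9 ± 17.9 and 56.9 ± 13.8 FPKM, and Dynlt3, a Tctex-type chain, 13.0 ± 3.16 and 13.7 ± 1.65 FPKM.

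Dynlt1c, a second Tctex-type chain, read 4.63, 4.09 and 3.81 FPKM in controls and 2.27, 3.46 and 2.31 FPKM in knockouts. The groups were apart, but the gene did not pass (log2 difference -0.51 ± 0.22, unadjusted p = 0.0386, adjusted p = 0.897, limma). Dynlt1c is a plus-strand gene of chromosome 17 (6601671 to 6609774). Close copies of it, Dynlt1a, Dynlt1b and Dynlt1f, were not analysed here, and the sources used here do not give how reads common to such copies were counted, so its level is uncertain.

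Dynactin, the partner that lets dynein walk far, had all 6 numbered subunit genes in the table, and 2 had positive and 4 negative differences. Dctn6, a subunit of the pointed end, was the most abundant, at 23.4, 33.0 and 36.8 FPKM in controls and 30.7, 31.4 and 27.3 FPKM in knockouts (log2 difference -0.04 ± 0.24, adjusted p = 0.9996, limma). Dctn1, which encodes the microtubule-binding arm p150Glued, measured 16.4 ± 6.14 and 14.3 ± 4.36 FPKM, and Dctn2, which encodes dynamitin, 9.48 ± 2.55 and 9.39 ± 2.33 FPKM. Dctn4 and Dctn5, both of the pointed end, lay at group means of 5.50 to 7.63 FPKM. Dctn3, a subunit of the shoulder, had the largest difference of the class. It read 7.89, 6.88 and 12.2 FPKM in controls and 5.68, 4.19 and 6.43 FPKM in knockouts, with no overlap and means that differed 1.65-fold. The log2 difference of -0.61 ± 0.25 had an unadjusted p of 0.0314 and did not pass (adjusted p = 0.895, limma), and it was -0.40 without control 3. Dctn3 is a minus-strand gene of chromosome 4 (41714798 to 41723170).

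The 5 axonemal dynein genes of the set had control means from 0.190 FPKM for Dnah14 to 8.05 FPKM for Dnaic1. Dnaic1, an intermediate chain of the outer arm, was the highest of them by control mean and had the largest control SD of the class, 5.07 FPKM. It read 3.10, 7.82 and 13.2 FPKM in controls and 3.34, 4.66 and 4.19 FPKM in knockouts, so that controls 2 and 3 lay above all knockout libraries and control 1 below them. Its log2 difference was -0.67 ± 0.36 (adjusted p = 0.909, limma). Without control 1 it was -1.15 (adjusted p = 0.111, limma), and without control 3 it was -0.26. Dnaic2 measured 1.80 ± 1.07 and 1.47 ± 0.26 FPKM, and the light chains Dnal1 and Dnal4 4.72 ± 1.66 and 2.54 ± 1.74 FPKM in controls and 5.60 ± 1.51 and 2.47 ± 0.07 FPKM in knockouts. Of 16 markers of motile cilia, 1 was in the table, Ccdc39, at 2.46 to 2.65 FPKM in controls and 2.30 to 3.80 FPKM in knockouts.

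Myosins were led by Myo5a, a vesicle motor of the actin cortex, at 9.41, 9.40 and 10.6 FPKM in controls and 8.48, 11.0 and 11.4 FPKM in knockouts (log2 difference 0.06 ± 0.22, adjusted p = 0.9996, limma). Of the 10 myosins tested, 6 had positive and 4 negative differences, and none had groups that were apart. Myo9a had the smallest p of the class. It read 8.23, 4.92 and 6.52 FPKM in controls and 9.32, 10.7 and 7.23 FPKM in knockouts (log2 difference 0.43 ± 0.24, adjusted p = 0.911, limma), and the groups overlapped through control 1 and knockout 3. Without control 2 the log2 difference of Myo9a was 0.26. Myo18a, a myosin of the Golgi, read 4.78, 3.15 and 4.50 FPKM in controls and 2.18, 3.53 and 3.46 FPKM in knockouts (log2 difference -0.35 ± 0.24, adjusted p = 0.934, limma), and its difference was -0.18 without knockout 1. Myo7a, known as an Usher syndrome gene and active in photoreceptors and pigment epithelium, measured 2.25 ± 1.22 and 1.99 ± 0.61 FPKM. The 5 markers listed for pigment epithelium had no values in the table used here and so were not analysed. Myo10, Myo6, Myo5b, Myo9b and Myo19 had group means between 2.17 and 9.46 FPKM and adjusted p-values of 0.979 or more in limma. Myo1e was below the limit for testing, at 0.683, 0.507 and 0.707 FPKM in controls and 0.794, 1.01 and 0.866 FPKM in knockouts, and its groups were apart.

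None of the listed genes that work with motors passed. Across all tested genes 5.49% had an unadjusted p under 0.05 in limma, and the counts below stand beside that share. Of 38 adaptors and regulators listed outside the set, 27 were tested, and 0 rose and 0 fell in limma (1 at an unadjusted p under 0.05), with a median log2 difference of 0.00. The gene of that p was Gipc1, which encodes an adaptor of myosin VI, at 2.11 ± 0.31 and 0.652 ± 0.407 FPKM (log2 difference -0.94 ± 0.23, adjusted p = 0.336, limma). The mitochondrial motor receptors Rhot1 and Rhot2 were the most abundant, at 36.4 ± 5.54 and 38.3 ± 2.59 FPKM in controls and 42.0 ± 3.29 and 34.1 ± 6.55 FPKM in knockouts. Kifap3, the cargo subunit of kinesin-2, measured 6.94 ± 1.80 and 8.01 ± 0.79 FPKM. Of 31 genes of tubulin, actin and microtubule-binding proteins, 23 were tested and 0 rose or fell (1 at an unadjusted p under 0.05), with a median of -0.06. That gene was Map2, a stabiliser of dendritic microtubules, at 46.4 ± 8.23 and 75.5 ± 11.2 FPKM (log2 difference 0.69 ± 0.24, adjusted p = 0.763, limma). Of 8 chains of conventional myosin 4 were tested and 0 passed (1 at an unadjusted p under 0.05, Myh9), with a median of -0.31.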

How the data were processed

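The table holds FPKM of protein-coding genes that the authors deposited, with 1 column for each of the 6 libraries. Cufflinks 2.2.1, TopHat2 2.1.0, DESeq2, HTSeq and mm10 are named, per the submitters' processing notes, which give no roles. The annotation and the use of strand were not given in the sources used here. Each of the 9720 genes exceeds 1 FPKM in at least 1 library, and 0.1 FPKM is the lowest value. FPKM keep no read total, so depth is unknown and the only measure of precision is how far libraries of a group differ.

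Values were tested as log2(FPKM + 1) for the 8627 genes averaging 1 FPKM or more with limma 3.58.1 in R 4.3.3 (variance trend, two-sided, Benjamini-Hochberg over all tested genes, threshold 0.05). The fit was also run on simulated data with shifts of 1 log2 unit or more, so recovery of smaller differences was not tested. Fold differences are ratios of mean FPKM. Members and lists were chosen with earlier results of these data known. Values in every library are given for the 12 tested members of smallest p, the most abundant of each class and those whose groups do not overlap. 1 member enters counts and medians but is not reported here. IDs of all 53 members matched GENCODE vM21 (GRCm38). Alternatives covered pseudocount, filter, scaling, variance model, array weights, a replicate block and leaving out each library. Tables and figures were made with matplotlib 3.10.9, numpy 2.4.6 and pandas 2.3.3 under Python 3.11.15.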

Additional observations from a re-analysis of the deposited data

How the results depend on the processing

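No motor gene of the set passed an adjusted p of 0.05 in any of the 16 alternatives run, limma in each. The smallest adjusted p among the 19 genes given in full was 0.069, for Kif4 with array weights in limma. At an unadjusted p under 0.05 there were 3 motor genes with all libraries, 8 (17%) with array weights, against 11.2% of all genes there, and 7 (14.9%) without control 1, against 10.1%. Over all genes, 9 passed in the reported fit and 23 with array weights. They numbered 6 with the replicate block, under which no motor gene passed and Kif4 had an adjusted p of 0.77. Deviations of same-numbered libraries had correlations of -0.12, -0.0853 and -0.0336, and those of differently numbered ones -0.04 to 0.097. With 3 libraries per group such values cannot decide whether samples were paired, and the labels do not state a pairing. With 1 library left out, between 6 (without control 2 or knockout 2) and 13 (without control 1) genes passed. Motor genes whose groups do not overlap numbered 4 as reported and 8 (17%) after median-ratio scaling and after scaling to a common sum, against 12.8% and 12.2% of all genes. With 1 library fewer they numbered 7 (14.6% without knockout 1 and 14.9% without knockout 2, against 14.7% and 13.9% of all genes) to 14 (29.8% without control 1, against 24.4%), the count rising by construction when a group holds fewer libraries. The median log2 difference of the tested motor genes moved between -0.12 (without control 1) and 0.12 (without control 3). No scaling moved the median of all genes by over 0.1.

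Of 301 pairs of a gene and an alternative, 283 kept their direction and side of the threshold and 18 changed sign. All 18 were in genes with a reported difference of 0.26 or less in size, and the cause was not tested. Other filters, no variance trend and the replicate block leave a log2 difference unchanged, so those pairs could not change sign. None of these genes was past the threshold in the reported fit. With array weights the log2 difference was -0.19 for Dynll1, -0.0825 for Kif1b and -0.0207 for Kif1bp. Dync1h1 was at 0.00703 after median-ratio scaling and 0.00474 after scaling to a common sum, and Kif1b at -0.0495 after quantile normalization. With a library left out, the range over these fits was -0.25 to 0.55 for Dynll1, -0.12 to 0.31 for Kif1bp and -0.0133 to 0.23 for Kif5b. Under the same fits it was -0.22 to 0.0946 for Dctn6, -0.12 to 0.10 for Dync1h1, -0.0548 to 0.0835 for Kif1b and -0.0148 to 0.18 for Myo5a. Depth is unknown, so its limits were not tested.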

Other observations

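Among the 9 motor genes of smallest p, 3 lie close together on chromosome 4, a stretch chosen after the values were seen. Kif24, Dnaic1 and Dctn3 fall within 332 kb, from 41390745 to 41723170 (GRCm38), which hold 11 genes of the table. Of the 8 tested, 7 were negative on the log2 scale (median -0.58), against 4538 of all 8627 tested genes. In limma none of the 8 was called. The stretch was set by the 3 motor genes, all negative, so these are no evidence of a regional difference. Without the 3 motor genes, 4 of 5 were negative, with a median of -0.34. Enho, which encodes the secreted peptide adropin and whose exons overlap those of Dnaic1 by 15 bp on the opposite strand, read 2.19, 1.28 and 1.17 FPKM in controls and 0.259, 0.770 and 0.406 FPKM in knockouts (log2 difference -0.77 ± 0.24, adjusted p = 0.643, limma). Control 1 was the highest library for Kif24 and Enho and the lowest for Dnaic1. For Enho and Dctn3 all knockout values lay below all control values, as they did for 5.87% of all tested genes. A cause common to the stretch was not tested. Il11ra1, in the same stretch, had a positive difference of 0.18.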
